A study of Solanum tuberosum with 6 samples.

Results

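Among the small RNAs of potato leaves, 36 predicted sequences had a length outside the range of plant miRNAs. They belong to the 388 sequences, named PC, that matched no known miRNA but lay in a predicted hairpin of the potato genome (group 4a). They were chosen by length alone, as the 21 sequences of at most 19 nt (short) and the 15 of at least 25 nt (long), out of 910 sequences in the whole table. Small RNA came from leaves of cv. Shepody grown in pots in a greenhouse. The 3 control libraries (C1, C3 and C5) came from plants sprayed with water, and the 3 KPhi libraries (T2, T4 and T6) from plants given potassium phosphite, sold as a commercial product, diluted to 1% (v/v) and applied to the leaves with 5 mL for each plant. Spraying took place at an age of 21 days from emergence, and leaves were taken 72 h later, at 24 days. The libraries of each condition were biological replicates by the study's statement, but how many plants entered each library was not given in the sources used here. The table holds no mRNA, so the leaf origin of the RNA could not be checked with leaf marker genes. Values of single libraries are given below in the order C1, C3, C5 for control and T2, T4, T6 for KPhi.

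Plant miRNAs are cut from the stem of a hairpin precursor by Dicer-like enzymes, which leave products of a narrow range of lengths with an Argonaute protein as their carrier. The longer class of these products belongs mostly to small interfering RNAs that guide DNA methylation. Fragments of ribosomal, transfer and other structured RNAs can be shorter or longer than Dicer products, and they also enter small RNA libraries. In Arabidopsis the first base helps to sort a small RNA to its Argonaute protein, with U common in miRNAs and A common in the methylation pathway. No function is annotated in the deposited files for any of the 36 sequences. No potato genome, ribosomal or transfer RNA sequence was used here, so whether they match ribosomal or transfer RNA was not tested. The study states a filter against such reads, and how completely it removed them was not tested here either.

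The sequences that carried most of the reads are shown first. They are written 5′ to 3′ with T for U, as in the deposited table. In the long sequences PC-5p-4196_484 and PC-3p-6013_346 the capitals mark the arms of a perfect inner stem of 6 base pairs, so that each of these sequences can fold on itself around a loop of 3 bases. In the similar short sequences PC-3p-681_2215 and PC-5p-835_1857 the capitals mark the 3 positions at which they differ. PC-5p-49_29782 has no marked part.
PC-5p-49_29782: acaaacgactctcggcaa
PC-3p-681_2215: cccgtgAACgttcccgtgg
PC-5p-835_1857: cccgtgGCGgttcccgtgg
PC-5p-4196_484: cccgcagtaGGGGCCtttGGCCCCcaagg
PC-3p-6013_346: gagggactaCGGCCTtttAGGCCGcg

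Some of the sequences were parts of one another. The 16, 17 and 19 nt sequences PC-3p-7716_274, PC-3p-4776_430 and PC-3p-53991_32 share one run, and the predicted 24 nt sequence PC-5p-49045_36 is complementary to it. PC-3p-11753_182 is the 24 nt sequence PC-3p-10278_209 with 1 base more at its 5′ end. PC-5p-60011_27 is the start of a 20 nt sequence, PC-3p-81028_18. PC-5p-5939_350 overlaps PC-3p-11122_193 by 16 bases. Capitals mark the shared run or, in PC-5p-49045_36, its complement.
PC-3p-7716_274: TCGGGAGGCTCAGTAC
PC-3p-4776_430: TCGGGAGGCTCAGTACT
PC-3p-53991_32: taTCGGGAGGCTCAGTACT
PC-5p-49045_36: gttgaAGTACTGAGCCTCCCGAta
PC-3p-11753_182: gATGGCGTGGTCCGCGAGCGGCGGC
PC-3p-10278_209: ATGGCGTGGTCCGCGAGCGGCGGC
PC-5p-60011_27: AATTCCTTGTCGCATA
PC-3p-81028_18: AATTCCTTGTCGCATAagta
PC-5p-5939_350: TGACTTGAGAGGTGTAgta
PC-3p-11122_193: tgaaaTGACTTGAGAGGTGTA

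Other sequences were complementary over a run of bases to another sequence of the table. Whether such sequences come from the same place in the genome was not tested. PC-3p-2979_661 was complementary over 17 bases to PC-3p-819_1881. PC-5p-2811_693 was complementary over 21 bases to PC-5p-101027_13, which had 13 reads in all. PC-3p-3429_583 and PC-5p-88569_15 were complementary to each other over 14 bases. Both also matched sly-MIR169b-p5_1ss6TC, a sequence named after a tomato miRNA precursor, with 4 reads in all. PC-3p-3429_583 shared 11 bases end to end with it, and PC-5p-88569_15 was complementary to it over 14 bases. Capitals mark the complementary run in each pair.
PC-3p-2979_661: ctGCCACGATCCACTGAGA
PC-3p-819_1881: tgaaTCTCAGTGGATCGTGGC
PC-5p-2811_693: CCCTTCGCGGCCAGCTTCTTAgagg
PC-5p-101027_13: TAAGAAGCTGGCCGCGAAGGG
PC-3p-3429_583: ctgtcaagagggtgcTATTGCTCCTTTCT
PC-5p-88569_15: ggaggttttgaaaAGAAAGGAGCAATA

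The short and long sequences were few but well read. They made up 9.28% of the sequences of group 4a and 32.5% of its reads, 58272 of all 6 libraries together, or 2.29% of the reads of the whole table. The 21 short sequences held 44421 reads and the 15 long sequences 13851 reads. The median was 91 reads per sequence for the short and 49 for the long, against 39.5 for the 88 predicted sequences of 20 to 23 nt and 17 for the 264 of 24 nt. Beside the length limits, there were 8 sequences of 19 nt and 5 of 20 nt, and 264 of 24 nt and 5 of 25 nt. The study states a window of 18 to 25 nt for mapping, and 19 of the 36 sequences lay inside it and 17 outside. It also reports that the reads left after filtering were 15 to 32 nt long, and all 36 lay in that range. In the plot of sequences and reads by length, the 18 nt bar stands out in reads and not in sequences.

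**Figure D1:**
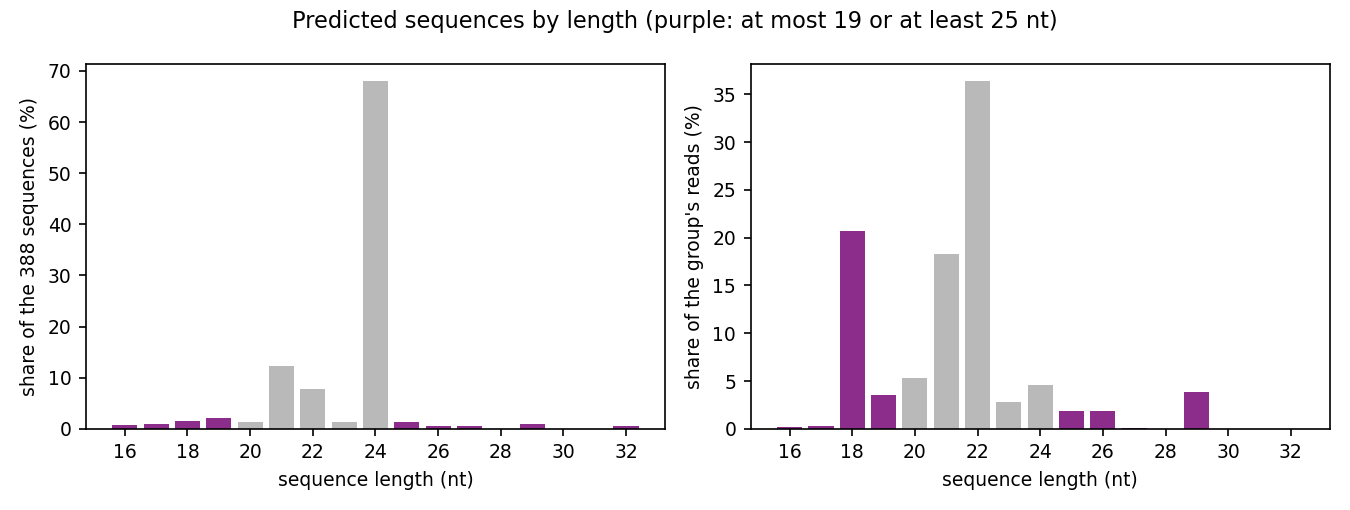
Share of the 388 predicted sequences of group 4a (left, in %) and share of their reads over all 6 libraries (right, in %) by sequence length in nt, with the short and long sequences in purple. Sequences of 24 nt were 68.0% of the sequences and 4.56% of the reads, and the 6 sequences of 18 nt were 1.55% of the sequences and 20.7% of the reads.

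Reads were concentrated on few sequences. PC-5p-49_29782 alone held 36698 reads, 82.6% of the reads of the short sequences. PC-5p-4196_484 held 5910 reads, 42.7% of those of the long sequences. At the other end, PC-5p-106189_12 had 3 reads in all, and this 25 nt sequence is the 24 nt sequence PC-5p-60814_27 with 1 base more. Of the 36 sequences, 19 short and 13 long ones had at least a part of a read in every library.

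The first base and the base composition of the short and long sequences stood apart from those of the other predicted sequences in these counts. The first base was C in 10 of the 21 short sequences (47.6%) and T in 6 (28.6%). Among the 15 long ones it was C in 5 (33.3%), T in 5 (33.3%) and G in 4 (26.7%). It was C in 14.8% of the predicted sequences of 20 to 23 nt, of which 63.6% began with T (U in the RNA), and in 1.14% of those of 24 nt, of which 83.0% began with A. The median share of G and C was 55.6% in the short and in the long sequences, 47.6% in those of 20 to 23 nt and 45.8% in those of 24 nt. It ranged from 22.2% (PC-3p-122063_10) to 80.0% (PC-3p-11753_182). These are descriptions of the sequence lists, with no test.

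Overlaps with other sequences were about as frequent as in the class of 20 to 23 nt. An exact overlap of at least 10 bases with another sequence of the table was found for 6 of 21 short and 3 of 15 long sequences, against 27.3% of the sequences of 20 to 23 nt and 6.82% of those of 24 nt. A complementary run of at least 14 bases was found for 4 short and 3 long sequences out of 21 and 15, against 7.95% and 8.71%. These matches are not all independent. The nested PC-3p-7716_274, PC-3p-4776_430 and PC-3p-53991_32 matched the same sequence, and PC-3p-3429_583 and PC-5p-88569_15 matched each other. An inner stem of at least 5 base pairs was found in 2 long sequences, which are those printed above, in 0 short ones, and in 2 sequences of each of the other length classes. The end of PC-3p-51395_34 and the start of PC-5p-4196_484 shared 9 bases, which is below the overlap limit and was seen only after the limit was set. Reads were given as fractions, by a rule for splitting them that the sources used here do not give, for 7 short and 5 long sequences. Names with 5p and 3p, for the arm of the predicted hairpin, were spread as 9 and 12 among the short and 8 and 7 among the long sequences.

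The libraries differed in depth and in the part of the reads that the table holds. Mappable reads were between 4133739 (C5) and 8025802 (T2) per library, and the table held 9.14% to 11.3% of them in control libraries and 4.56% in T2, 3.66% in T4 and 9.35% in T6. T4 had the fewest table reads, 160906 after rounding, and 33.5% of its raw reads were longer than 32 nt, against 3.13% to 13.6% in the other libraries. Known potato miRNAs made up 5.41% to 7.10% of the mappable reads in control libraries and 2.99% in T2, 1.41% in T4 and 5.06% in T6.

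The question of the study was whether small RNAs change in leaves after KPhi treatment. For the short and long sequences as classes, the spread among KPhi libraries was wider than the difference between the conditions. Per 1000000 mappable reads, the short sequences had 1558, 1599 and 1478 reads in control and 715, 1873 and 1394 in KPhi libraries. The 3 control values lay close together, while T2 was the lowest and T4 the highest of all 6. As a share of mappable reads, control libraries had 0.155% ± 0.00613 and KPhi libraries 0.133% ± 0.0582 (SD, n = 3, two-sided exact permutation test, p = 0.7). Without PC-5p-49_29782 they were 0.0249% ± 0.00577 and 0.0234% ± 0.00154 (SD, n = 3, two-sided exact permutation test, p = 0.9).

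The long sequences made up 0.0331%, 0.0393% and 0.0495% of the mappable reads of control and 0.0328%, 0.0685% and 0.0419% of those of KPhi libraries. T4 was again the highest, and T2 the lowest by a small margin. Control libraries had a mean of 0.0407% ± 0.00829 and KPhi libraries of 0.0478% ± 0.0185 (SD, n = 3, two-sided exact permutation test, p = 0.7). Both differences were within the spread of the libraries, and 3 libraries against 3 give no p below 0.1. Without T4 the difference of the long sequences was -0.00327 percentage points in place of 0.00712, and without T2 that of the short ones was 0.00886 in place of -0.0218, so neither direction held.

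**Figure D2:**
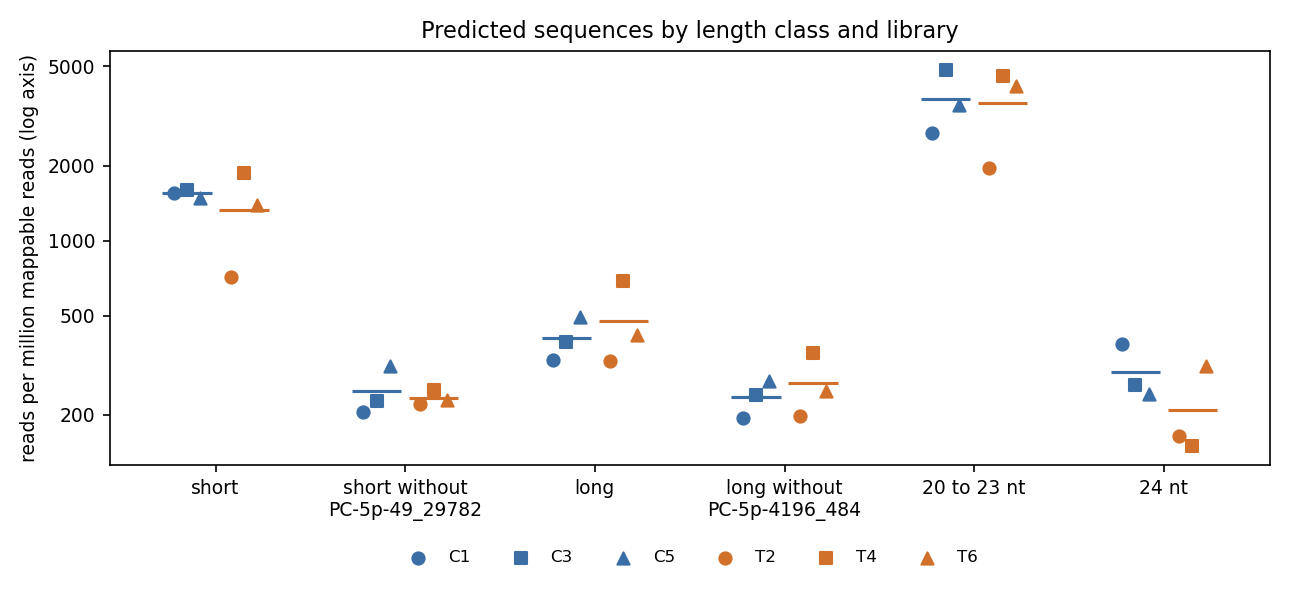
Reads per 1000000 mappable reads (log axis) of the short and long sequences, with and without the most abundant sequence of each, and of the predicted sequences of 20 to 23 nt and of 24 nt, for each library (blue control, orange KPhi, line at the mean of 3 libraries). The short sequences of the control libraries sit between 1478 and 1599 per 1000000, while those of the KPhi libraries spread from 715 (T2) to 1873 (T4).

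Single sequences were tested by the quasi-likelihood method of edgeR, with libraries scaled by TMM, which sets the bulk of the sequences equal between libraries. The test was fitted on the 165 sequences of the table that reached 10 reads in 3 or more libraries, which 17 of the 36 short and long sequences passed (11 short and 6 long). These 17 held 98.8% of the reads of the 36, 13 of them had 10 reads in all 6 libraries, and the other 4 reached 10 reads in fewer than 3 control libraries, so that they passed only with the help of KPhi libraries. These were PC-3p-33922_58, PC-3p-11753_182 and PC-3p-47447_38, with 2 control libraries each, and PC-5p-60011_27, with 1. The other 19 had 3 to 169 reads in all, with a median of 27. The share of all sequences tested that passed an adjusted p of 0.05 in edgeR was 0.00%, and 0 of the 17 passed. An unadjusted p under 0.05 in edgeR was reached by 4 of the 17, all 4 with higher values in KPhi libraries, against 9.70% of all sequences tested in either direction, 5.45% with higher and 4.24% with lower values. They were PC-3p-33922_58, PC-3p-11753_182, PC-3p-4776_430 and PC-3p-48036_37. Of these, PC-3p-33922_58 and PC-3p-11753_182 passed the filter only with the help of KPhi libraries, where they are high, so they do not count as support. Of the 17, 0 reached an unadjusted p under 0.05 in edgeR without C1, and 7 did without C3. DESeq2 called 0 at an adjusted and 8 at an unadjusted p under 0.05, and limma-trend 0 and 2. For DESeq2, limma-trend and the fits with a library left out, the share of all fitted sequences was not counted. Their numbers therefore cannot be set against a background.

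Most of the fitted values lay above 0. The log2 fold change (KPhi against control) was above 0 for 9 of 11 short and 6 of 6 long sequences, 15 of 17 together, against 43.6% of all sequences tested. The median was 0.94 for the short and 0.83 for the long sequences, against -0.13 for all sequences tested, -0.04 for the 37 tested sequences of 20 to 23 nt and -0.18 for the 29 of 24 nt. With 10 reads required in every library, which leaves out the 4 sequences that passed with the help of KPhi libraries, 11 of 13 were above 0 and the median was 0.73, against 52.2% and 0.08 for the 90 sequences then fitted. The scale moves all of these values together. With mappable reads as library size, the median of all tested sequences was -0.49 and that of the 17 was 0.48, with 13 above 0 against 30.3% of all tested. With library size alone the medians were 0.35 and 1.49, with 15 above 0 against 68.5% of all tested. Without the filter on low reads, all 36 sequences gave a value, 30 of them above 0 and with a median of 0.90, against 50.9% of the 841 sequences fitted and a median of 0.03.

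In CPM, the highest values were those of T2 and T4, but the part of T2 depended on the scale. Each of the 17 tested sequences had its highest CPM (counts per 1000000, normalized by TMM) in T2 (7 sequences) or in T4 (10 sequences), against 43.6% of all sequences tested, 40.5% of those of 20 to 23 nt, 27.6% of those of 24 nt and 37.8% of the known potato miRNAs. In CPM, T4 lay above all 3 control libraries for 15 of the 17 and below them for 2, against 24.8% and 38.8% of all sequences tested. T2 lay above them for 13, against 36.4%, and T6 for 4, against 21.8%. Per 1000000 mappable reads, T4 was the highest library for 11 of the 17, against 15.2% of all sequences tested, and T2 for 1, against 6.67%. The other 5 were highest in C5 (PC-3p-681_2215 and PC-5p-835_1857), C3 (PC-3p-3429_583) or T6 (PC-3p-26055_79 and PC-3p-48036_37). On that scale T4 lay above all control libraries for 13 of the 17, T2 for 3 and T6 for 4, against 17.6%, 9.70% and 21.2% of all sequences tested. With T2 and T4 both left out, an alternative added after the data were seen, the median of the 15 sequences that could be fitted was 0.04, with 8 above 0 and 7 below. For all 149 sequences then fitted the median was -0.02, with 46.3% above 0. In that fit T6 alone stands for KPhi and is assumed to vary like the control libraries. The values furthest above 0 in it were 1.25 for PC-3p-48036_37, 0.68 for PC-3p-2979_661 and 0.61 for PC-3p-26055_79. T2 and T4 were also the libraries with the smallest share of mappable reads in the table and of known miRNAs, and the part of this in the result was not tested.

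**Figure D3:**
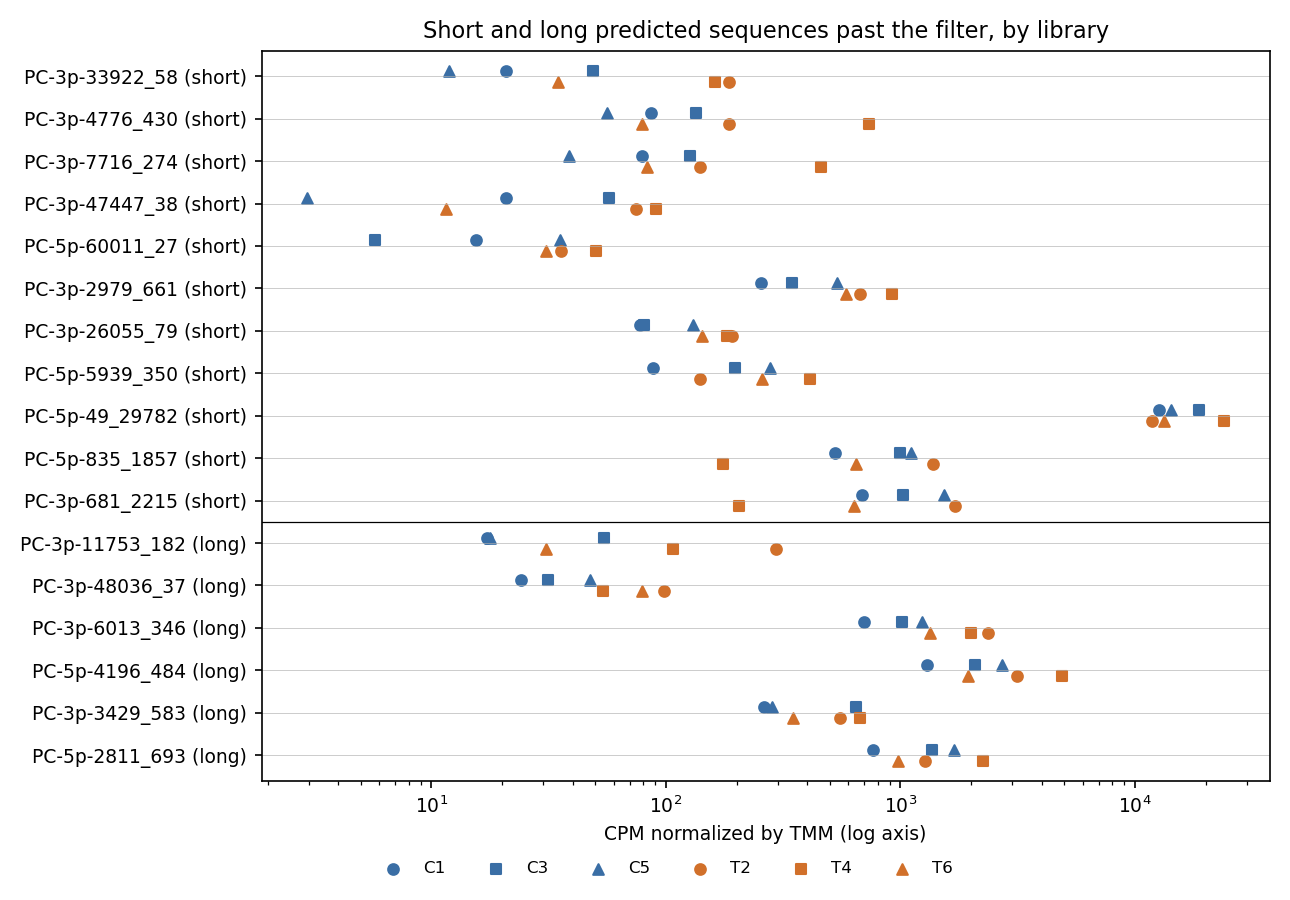
CPM normalized by TMM (log axis) of the 17 short and long sequences past the filter on low reads, in each control (blue) and KPhi (orange) library. The rightmost point of every sequence is T2 or T4, and T6 lies above all control libraries for 4 of the 17.

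Of the tested short sequences, PC-3p-33922_58 (18 nt, cgtggaaacgctctttaa) had the highest fold change. It had 12, 17 and 4 control reads against 62, 48 and 18 KPhi reads. On the normalized scale T2 (185 CPM) and T4 (161 CPM) stood above the control libraries (11.8 to 48.7 CPM) and T6 (34.7 CPM) among them. Control libraries had a mean of 27.1 ± 19.3 CPM and KPhi libraries of 127 ± 80.8 CPM (SD, n = 3), and the log2 fold change was 2.22 ± 0.75 (SE, edgeR, adjusted p = 0.470). PC-3p-47447_38, also of 18 nt, had 12, 20 and 1 control reads against 25, 27 and 6 KPhi reads. Its log2 fold change was 1.10 ± 0.88 (SE), with C5 and T6 the lowest library of each condition, and it was 2.27 without C3 and 0.65 without C5. That of PC-3p-33922_58 was 3.04 without C3.

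The 3 nested sequences shared a pattern led by T4. PC-3p-4776_430 had 49.9, 46.8 and 18.8 control reads against 61.9, 219 and 40.8 KPhi reads. T4 alone held 50.1% of its reads. PC-3p-7716_274, shorter by 1 base, had 46, 43.9 and 13 control reads against 47.4, 136 and 42.8 KPhi reads. Their ratio was between 0.953 (T6) and 1.61 (T4), and PC-3p-53991_32, longer by 2 bases at the 5′ end, had 14 of its 35.3 reads in T4. The log2 fold changes were 1.84 ± 0.77 (SE) and 1.47 ± 0.71 (SE), and without T4 they were 0.69 and 0.61. Summed as one, the 3 sequences were at 1.69 ± 0.74 (SE, edgeR over the table with overlapping sequences summed, adjusted p = 0.440). The complementary PC-5p-49045_36 did not share the peak in T4, with 9.92, 14.1 and 6.75 control reads against 15.4, 8.25 and 7.17 KPhi reads.

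The pair PC-3p-681_2215 and PC-5p-835_1857 had the opposite pattern in T4. These sequences differ by A7G, A8C and C9G, with positions counted from the 5′ end and the base of PC-3p-681_2215 first. PC-3p-681_2215 had 396, 356 and 518 control reads against 573, 61 and 330 KPhi reads. PC-5p-835_1857 had 304, 346 and 375 control reads against 462, 52 and 335 KPhi reads. Both were lowest in T4 on every scale used here, and highest in T2 in reads and CPM but in C5 per mappable reads. The ratio of the first to the second stayed between 0.985 (T6) and 1.38 (C5). Their log2 fold changes of -0.34 ± 0.68 (SE) and -0.26 ± 0.66 (SE) were the only ones below 0 among the 17. They became 0.34 and 0.42 without T4, and -1.34 and -1.08 without T2.

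PC-5p-49_29782, the most abundant of the short sequences, overlapped between the conditions. It had 7355, 6512 and 4813 control reads against 3969, 7125 and 6924 KPhi reads. The means were 15197 ± 3099 CPM in control and 16371 ± 6601 CPM in KPhi libraries (SD, n = 3 each), with T4 above and T2 below all control libraries. Its log2 fold change was 0.11 ± 0.44 (SE, edgeR, adjusted p = 0.889). The value was -0.25 with mappable reads as library size and -0.14 without T4, so no direction can be given.

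PC-3p-2979_661 and PC-3p-26055_79, both of 19 nt, did not overlap between the conditions on the CPM scale. PC-3p-2979_661 had 147, 121 and 183 control reads against 226, 274 and 305 KPhi reads. Control libraries had a mean of 379 ± 145 CPM and KPhi libraries of 727 ± 173 CPM (SD, n = 3), and the log2 fold change was 0.94 ± 0.47 (SE, edgeR, adjusted p = 0.491). PC-3p-819_1881, the 21 nt sequence that is complementary to it, had 896, 2404 and 389 control reads against 264, 161 and 847 KPhi reads, at a log2 fold change of -1.69 ± 0.71 (SE, edgeR, adjusted p = 0.470). In CPM, PC-3p-819_1881 was highest in C3 (6889), and T6 (1631) lay above C1 (1546) and C5 (1151). The fold changes of the 2 sequences had opposite signs, and the ratio of the 19 nt to the 21 nt sequence was 0.0501 in C3 and 1.70 in T4. The difference between the 2 sequences was not tested.

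PC-3p-26055_79 (gcgtaggcctcccaaaagg) had 45, 28.5 and 44.5 control reads against 63.5, 53.5 and 74 KPhi reads. Its log2 fold change was 0.84 ± 0.49 (SE, edgeR, adjusted p = 0.534). PC-5p-60011_27 had 9, 2 and 12 control reads against 12, 15 and 16 KPhi reads, at a log2 fold change of 1.04 ± 0.61 (SE), with C5 among the KPhi libraries, and at 1.88 without C5. PC-5p-5939_350 had 50.6, 68.8 and 93.6 control reads against 47.2, 122 and 133 KPhi reads, at 0.52 ± 0.58 (SE), with overlapping libraries. Summed with the 2 sequences that overlap it, PC-3p-11122_193 and PC-5p-1305_1307, it was at 0.91 ± 0.45 (SE, edgeR over the summed table, adjusted p = 0.455), with 9335 of the summed reads from PC-5p-1305_1307.

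Among the tested long sequences, PC-3p-11753_182 had the highest fold change and the largest share of reads in 1 library. It had 10, 19 and 6 control reads against 99, 32 and 16 KPhi reads, so that 54.4% of its reads were in T2. Its log2 fold change was 2.28 ± 0.84 (SE, edgeR, adjusted p = 0.470), and it was 1.25 without T2 and 3.18 without C3. The 24 nt sequence inside it, PC-3p-10278_209, was also highest in T2, with 36, 22 and 29 control reads against 267, 21 and 77 KPhi reads. In CPM, T4 was above the control libraries for the 25 nt sequence and among them for the 24 nt one, of which it had the fewest reads.

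PC-3p-6013_346 and PC-3p-48036_37, both of 26 nt, did not overlap between the conditions in CPM. PC-3p-6013_346, with the inner stem, had 407, 355 and 419 control reads against 791, 597 and 692 KPhi reads. Control libraries had a mean of 986 ± 269.9 CPM and KPhi libraries of 1899 ± 522 CPM (SD, n = 3), and the log2 fold change was 0.95 ± 0.44 (SE, edgeR, adjusted p = 0.486). T6, at 1332 CPM, was close to the highest control library, C5, at 1239 CPM. PC-3p-48036_37 (taggtaggacggcgcggctgctttgt) had 14, 11 and 16 control reads against 33, 16 and 41 KPhi reads, at a log2 fold change of 1.18 ± 0.52 (SE, edgeR, adjusted p = 0.470). In CPM, every KPhi library lay above every control library for 4 of the 17, which are these and PC-3p-2979_661 and PC-3p-26055_79, against 7.88% of all sequences tested. Per 1000000 mappable reads, a scale compared after the data were seen, this held for 0 of the 17, against 1.21% of all sequences tested. All 4 are among the predicted sequences that the study named as differing on these same libraries, so they are not independent evidence. Every KPhi library lay below every control library in CPM for 0 of the 17, against 9.09% of all sequences tested, and per mappable reads for 1 (PC-3p-681_2215), against 11.5%. The other 13 had a median log2 fold change of 0.71, with 11 above 0.

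The other long sequences were abundant and overlapped between the conditions. PC-5p-4196_484, with the inner stem, had 749, 728 and 918 control reads against 1048, 1455 and 1012 KPhi reads. Control libraries had a mean of 2031 ± 713 CPM and KPhi libraries of 3321 ± 1480 CPM (SD, n = 3), and the log2 fold change was 0.71 ± 0.49 (SE, edgeR, adjusted p = 0.590), with T6 below C3 and C5. PC-5p-2811_693 had 441, 476 and 569 control reads against 427, 666 and 506 KPhi reads. It was at 0.24 ± 0.49 (SE), and at -0.14 with mappable reads as library size. PC-3p-3429_583 had 153, 225 and 96.5 control reads against 186, 200 and 181 KPhi reads, at 0.40 ± 0.51 (SE), with C3 near T4, and at 1.10 without C3.

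**Figure D4:**
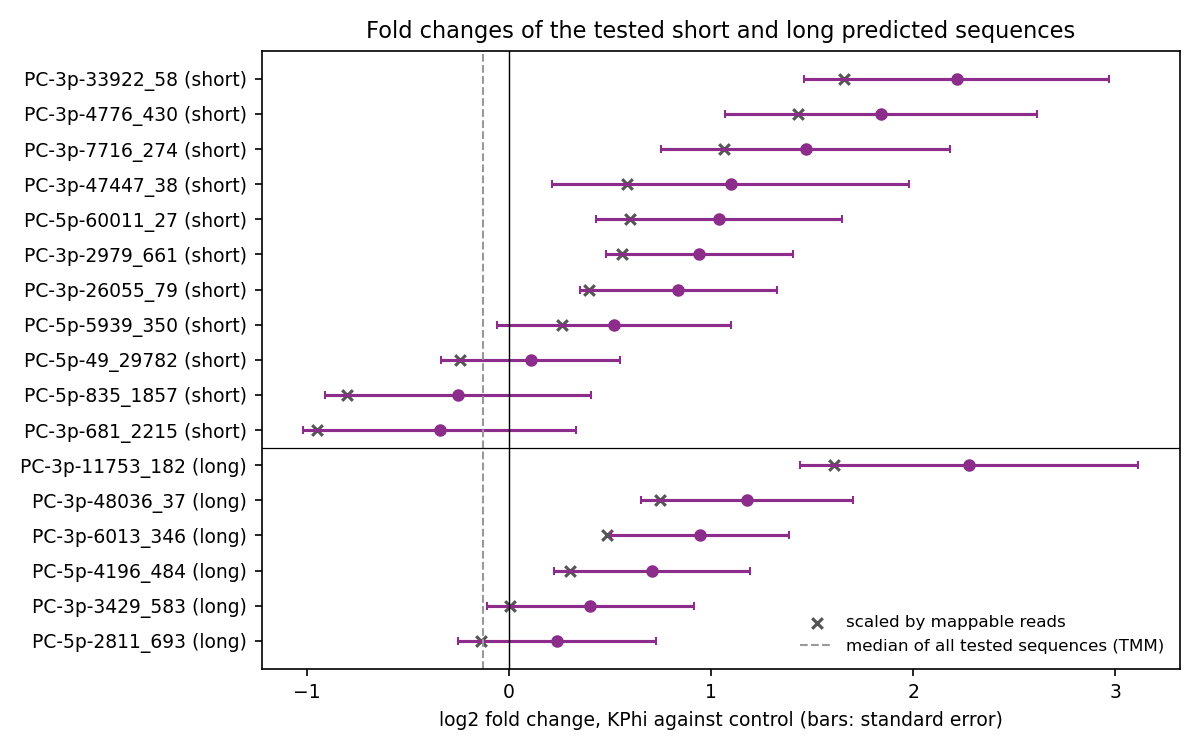
Log2 fold change of KPhi against control for the 17 tested sequences, with libraries scaled by TMM (points, bars are standard errors) or by mappable reads (crosses). The dashed line is the median of all 165 tested sequences by TMM (-0.13), and 15 of the 17 points lie above 0 against 13 of the 17 crosses. By mappable reads the median of all tested sequences was -0.49, which the line does not show.

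Of the 19 sequences with fewer reads, several had most of their reads in 1 library. PC-5p-14147_152 (cggatagctggagctcgcg) had 1, 2 and 6 control reads against 153, 6 and 1 KPhi reads, so that T2 held 90.5% of them. Without the filter on low reads it was the only one of the 36 to pass an adjusted p of 0.05 (log2 fold change 4.33, adjusted p = 6.2e-06 from edgeR), with 153 of its 169 reads in T2. How many of the 841 sequences of that fit passed was not counted. PC-3p-81618_17 had 28 of its 43 reads in T4, PC-3p-49290_36 had 17.3 of 27 and PC-3p-122063_10 had 7 of 10. PC-5p-57219_29 had 18 of its 29 reads in T6, and PC-5p-119758_10 had 7 of 10 in C3. PC-5p-106189_12 had 2.25 of its 3 reads in C1.

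In all, 1 library held more than 50% of the reads of 5 short and 4 long sequences (23.8% and 26.7%). The same held for 4.55% of the predicted sequences of 20 to 23 nt and 9.09% of those of 24 nt. Per 1000000 mappable reads, T4 was the highest library for 12 short and 5 long sequences, 47.2% of the 36, against 15.9% of the sequences of 20 to 23 nt and 4.55% of those of 24 nt. T4 was also the library with the highest share of raw reads over 32 nt, and the part of this in these values was not tested. PC-5p-55700_30 and its 21 nt partner PC-3p-2679_728 were both highest in T4, with 9.5 of 25.5 reads and 668 of 2238 reads. PC-5p-88569_15 had 6.5, 6 and 7 control reads against 7.5, 7.5 and 19 KPhi reads, with T6 the highest. The remaining 9 sequences had 17.5 to 57 reads, no shared or complementary run and no library with more than 50% of their reads. Among them, PC-3p-51395_34 had 5, 1 and 9 control reads against 9, 14 and 19 KPhi reads, with C5 at the level of T2. PC-5p-76219_19 had 7, 6 and 3 control reads against 0, 0 and 3 KPhi reads, so that it was read in T6 alone of the KPhi libraries. Both were picked after their values were seen.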

How the data were processed

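Small RNA libraries of 3 control and 3 KPhi samples, grouped by their titles, were used. The authors made TruSeq libraries and used ACGT101-miR (version not given in the sources used here) to trim and filter reads and to match them to miRBase 21.0 and the potato genome. The authors' deposited read summary holds whole counts per library and step. The deposited expected counts are reads per sequence, some of them fractions. The authors' deposited normalized signal is these reads over 1 parameter per library, with 0.001 for 0 reads. The deposited p-values, means and SDs of the authors' own test were not used.

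Reads were rounded and tested with edgeR 4.0.16 (R 4.3.3), unpaired, where 10 reads were reached in 3 libraries or more, with Benjamini-Hochberg adjustment over all tested sequences and a threshold of 0.05. TMM factors ranged from 0.746 (C3) to 0.947 (C1), apart from 1.85 in T4. The SE of a log2 fold change was computed as its absolute value over the square root of the F statistic of the edgeR test. It is therefore approximate. The p-values judge the difference between the conditions against the spread between these libraries. Shares were compared by exact permutation tests (scipy 1.17.1), which cannot go below 0.1 here. Overlaps needed 10 bases, complements 14 and stems 5 pairs around a loop of at least 3 bases. DESeq2 1.42.0, limma 3.58.1 on log2 of the normalized signal plus 1, other scalings and filters, summing of overlapping sequences and leaving out libraries were alternatives. The edgeR fit was tested on simulated data. Named sequences are those past the filter, those with an overlap, and those with over 50% of reads in 1 library. A few more were named after their values were seen. The members and lists were chosen with earlier results of these data known.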

Additional observations from a re-analysis of the deposited data

How the results depend on the processing

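No adjusted call was made among the short and long sequences under any alternative except the edgeR fit with no filter on low reads, which called 1 (PC-5p-14147_152). The number at an unadjusted p under 0.05 was 4 with TMM factors, 6 with RLE factors, 7 when only library size was used, 3 with mappable reads or with the authors' parameters, 10 with no filter, 8 in DESeq2 and 2 in limma-trend. With 1 library left out it ranged from 0 (without C1) to 7 (without C3), and it was 0 without both T2 and T4, an alternative chosen after the data were seen. Of these counts, only the 4 of the main fit (TMM factors, 10 reads in 3 or more libraries) has a share of all fitted sequences, 9.70%. The other counts, also those of other fits with TMM factors, cannot be set against a background. The difference of the short sequences was above 0 as a share of the table's reads (1.18 percentage points) and under a limit of 17 nt (0.00263), and ranged from -0.0491 to 0.00886 with 1 library left out. That of the long sequences ranged from -0.00327 to 0.0146. With mappable reads as library size PC-5p-49_29782 was at -0.25 and PC-5p-2811_693 at -0.14. With 1 library left out, PC-5p-49_29782 ranged from -0.14 to 0.43, PC-5p-2811_693 from -0.00073 to 0.56, PC-5p-835_1857 from -1.08 to 0.42 and PC-3p-681_2215 from -1.34 to 0.34. Without both T2 and T4, -0.16 was fitted for PC-5p-49_29782, -0.014 for PC-5p-4196_484, -0.33 for PC-5p-2811_693, -0.20 for PC-3p-4776_430 and -0.15 for PC-3p-3429_583. With 1 library left out, the fold change of 9 of the 17 moved by over 1.5 times. The number whose KPhi libraries all lay above the controls went from 4 in CPM to 0 per mappable reads. The cause was not tested. The low number of table reads in T4 and 3 libraries a condition limit what can be told apart. No paired analysis was possible because no replicate number occurs in both conditions and the labels name no pairs.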
